A study of Mus musculus with 4 samples.

Results

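The 10 transcripts described here encode effectors of the type I interferon response: the IFIT proteins (Ifit1, Ifit2, Ifit3 and Ifit3b), the ubiquitin-like modifier ISG15 with its protease (Isg15 and Usp18), viperin (Rsad2), the Mx GTPases (Mx1 and Mx2) and Ifi44. They were taken by name, as known type I interferon effector genes, from 55573 mouse Ensembl gene identifiers, and all 10 were found. RNA sequencing had been carried out on bone marrow B cells from the Fr.C+C' gate, which takes in B cell precursors at the late pro-B and early pre-B stages. The libraries labelled KO 1 and KO 2 came from mice labelled as ADAR1 knockouts, and the libraries WT 1 and WT 2 came from wild type mice. All mice were C57BL/6 and aged 8 to 12 weeks, and no treatment is named. The sources used here do not give how the knockout was made or in which cells it acts. They do not say that a group's 2 libraries come from different animals either, so the spread behind each p-value may be technical.

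Type I interferons bind the receptor IFNAR, whose kinases JAK1 and TYK2 set off assembly of the complex ISGF3, which holds STAT2 and IRF9. ISGF3 binds interferon-stimulated response elements in the promoters of genes such as these. ADAR1, the product of Adar, deaminates adenosines of double-stranded RNA to inosine, and in other mouse tissues its loss lets the sensor MDA5 respond to the cell's own RNA and induces interferon-stimulated genes. The comparison asks whether transcripts of this class differ in early B cells labelled as lacking ADAR1.

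The response element can be seen in the promoters of several of these genes. RefSeq promoter windows, reaching 250 bases before and 50 bases after a gene start on GRCm38.p6, were matched for 7 of the 10 genes, all but Usp18, Mx1 and Mx2. The 10-base core GAAANNGAAA, in which N is any base, was searched on both strands. It was found in the windows of 5 of these 7 genes, against 3.94% of 17492 protein-coding genes with a window and 24 of 41 other interferon-stimulated genes with one. The stretches below run from 200 to 21 bases before the gene start, on the strand of the gene and 5′ to 3′, with matches in capitals, and are shown because they carry the element in the genes whose values follow.
Ifit1 (chr19:34640689-34640868, plus strand): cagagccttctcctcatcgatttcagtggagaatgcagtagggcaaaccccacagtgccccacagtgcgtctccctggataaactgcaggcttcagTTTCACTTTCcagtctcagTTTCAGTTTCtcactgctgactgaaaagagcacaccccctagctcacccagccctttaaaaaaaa
Ifit3 (chr19:34583329-34583508, plus strand): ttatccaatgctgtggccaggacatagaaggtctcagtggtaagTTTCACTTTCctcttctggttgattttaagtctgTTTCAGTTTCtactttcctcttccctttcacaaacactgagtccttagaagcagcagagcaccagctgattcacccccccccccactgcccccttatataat
Ifit3b (chr19:34607757-34607936, plus strand): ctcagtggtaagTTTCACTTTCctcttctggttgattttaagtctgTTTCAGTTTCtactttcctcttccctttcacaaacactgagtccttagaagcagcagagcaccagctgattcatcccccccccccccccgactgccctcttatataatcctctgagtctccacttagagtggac
Isg15 (chr4:156200839-156201018, minus strand): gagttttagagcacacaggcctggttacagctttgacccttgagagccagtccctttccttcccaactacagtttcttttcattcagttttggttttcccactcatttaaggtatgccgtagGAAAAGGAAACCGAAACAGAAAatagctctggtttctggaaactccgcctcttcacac
Rsad2 (chr12:26456473-26456652, minus strand): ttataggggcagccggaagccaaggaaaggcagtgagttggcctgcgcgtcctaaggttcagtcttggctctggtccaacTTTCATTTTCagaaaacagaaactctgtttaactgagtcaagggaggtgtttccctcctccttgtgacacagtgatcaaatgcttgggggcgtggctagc
Ifit1, Ifit3 and Ifit3b each held 2 matches, and Rsad2 held 1. All of these lie on the opposite strand, so that the printed capitals begin and end with TTTC. Isg15 held 3 matches on the strand of the gene that overlap in a single run of capitals. Both matches of Ifit3 and of Ifit3b lie in stretches that read nearly alike, further from the start in Ifit3b. No match was found in the windows of Ifit2, which has 2 annotated starts, or Ifi44. A match describes the sequence and is not evidence of binding in these cells.

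**Figure D1:**
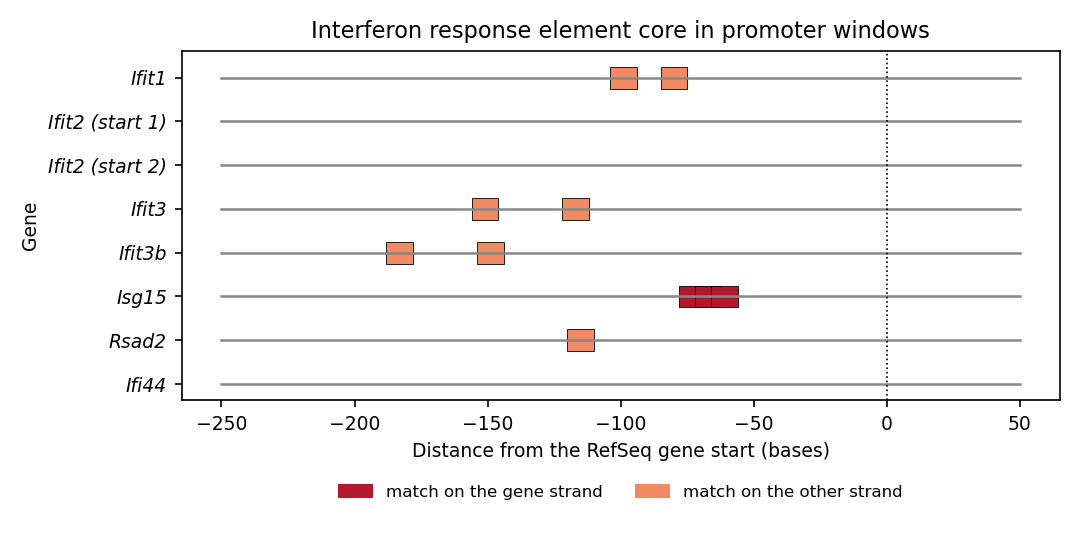
Positions of the core GAAANNGAAA in 8 RefSeq promoter windows of 7 genes, in bases from the gene start (dotted line at 0). Each grey line is a window, and each box is a match, coloured by strand. The matches lie between positions -188 and -57 in Ifit1, Ifit3, Ifit3b, Isg15 and Rsad2, and there is none for Ifit2 and Ifi44.

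The libraries held between 15111964 and 16397834 fragments assigned to genes, as estimated from the deposited FPKM values (fragments scaled to exon length and to library size). The targeted gene did not pass the test, with Adar at 15.19 and 16.79 FPKM in KO 1 and KO 2 and at 15.04 and 14.62 FPKM in WT 1 and WT 2 (log2 change 0.10 ± 0.14, adjusted p = 0.721), slightly higher in both KO libraries than in both WT libraries. A value over the whole gene does not show whether exons were lost, so it does not check the label. B-lineage markers were abundant in every library, among them Cd79a at 193.59 and 96.8 FPKM in KO 1 and KO 2 and 436.24 and 435.96 FPKM in WT 1 and WT 2, and Pax5 at 90.21 and 42.91 FPKM in KO 1 and KO 2 and 86.51 and 102.41 FPKM in WT 1 and WT 2. Neutrophil transcripts were abundant too, and S100a9, a neutrophil marker gene, stood at 15796 and 32346 FPKM in KO 1 and KO 2 and at 11647 and 11187 FPKM in WT 1 and WT 2. Together 10 neutrophil markers held 3.38% and 6.69% of the estimated fragments in KO 1 and KO 2, and 2.53% and 2.37% in WT 1 and WT 2. KO 2 held the most neutrophil RNA and the least B-lineage RNA. In bulk samples fewer cells of a type and less RNA per cell cannot be told apart.

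The effector transcripts were present at low to moderate levels in every library and tended to be higher in the libraries labelled KO, by most in KO 2. Both KO libraries lay above both WT libraries for 8 of the 10 genes, where 19.7% of all 13281 genes tested did so. All 10 differences were positive, with a median log2 change of 0.76 (KO minus WT, on log2 of FPKM + 1), against a median of -0.09 over all genes, of which 38.3% were positive. In limma 0 of the 10 passed an adjusted p of 0.05. Over all genes 0.203% passed, 27 in all and every one of them lower in KO, so that 0% passed as higher. An unadjusted p under 0.05 was reached by Isg15 (0.0107), Ifit3b (0.0166) and Usp18 (0.0499), 3 of the 10, where 6.45% of all genes reached it as higher. A fit with voom on estimated fragments also called 0 of the 10.

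**Figure D2:**
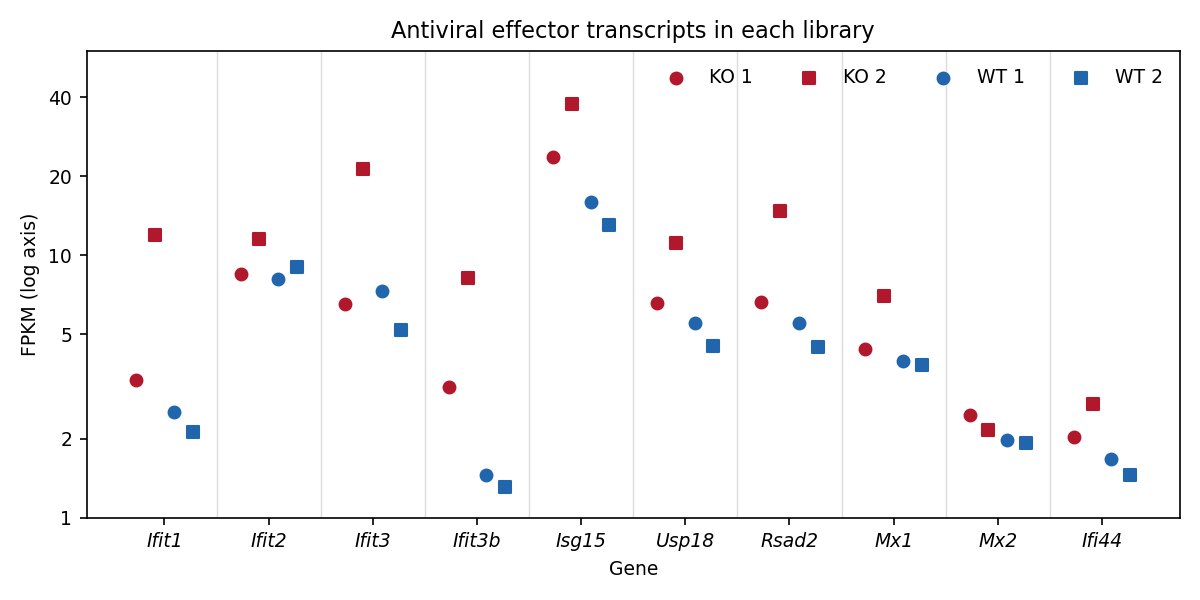
FPKM on a log axis for the 10 genes in KO 1 and KO 2 (red circle and square) and in WT 1 and WT 2 (blue circle and square), 1 point for each library. Both red points lie above both blue points except for Ifit2 and Ifit3, and the square of KO 2 is the highest point of every gene except Mx2.

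IFIT proteins are RNA-binding proteins with tetratricopeptide repeats that hold back translation of viral messages. The 4 genes lie in a cluster on chromosome 19 (GRCm38), Ifit2 at 34550694 to 34576419, Ifit3 at 34583531 to 34588731, Ifit3b at 34607970 to 34613401 and Ifit1 at 34640871 to 34650009. Ifit1, which encodes a protein that binds RNA with an incompletely methylated cap, stood at 3.35 and 11.98 FPKM in KO 1 and KO 2 and at 2.53 and 2.13 FPKM in WT 1 and WT 2. These values rest on 141 and 481 fragments in KO 1 and KO 2 and on 106 and 93 fragments in WT 1 and WT 2. The groups did not overlap, but KO 2 stood 5.14-fold above the WT mean and KO 1 only 1.44-fold. The log2 change was 1.18 ± 0.52 (standard error, as for all log2 changes here), with a 95% interval of -0.15 to 2.50 and an adjusted p of 0.436.

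Ifit3b showed the largest difference of the 10 genes, with 3.16 and 8.2 FPKM in KO 1 and KO 2 against 1.46 and 1.31 FPKM in WT 1 and WT 2. Its means were 5.68 ± 3.56 FPKM in KO and 1.39 ± 0.106 FPKM in WT (SD, n = 2 each), a ratio of 4.1. KO 1 rested on 100 fragments, with a 95% Poisson interval of 2.57 to 3.84 FPKM that covers counting error only, and WT 1, the higher WT library, on 46 fragments with an interval of 1.07 to 1.95 FPKM. These intervals do not overlap, but they take the fragments assigned to Ifit3b as given and do not cover how fragments are divided with its near copy Ifit3, described next. Its log2 change of 1.38 ± 0.39 (95% interval 0.37 to 2.38) had an adjusted p of 0.347.

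Ifit3, whose product in the mouse is closely related to that of Ifit3b, stood at 6.51 and 21.26 FPKM in KO 1 and KO 2 and at 7.29 and 5.2 FPKM in WT 1 and WT 2. KO 1 lay between the WT libraries, and KO 2 was 3.4-fold above the WT mean. The log2 change was 0.85 ± 0.53, with an adjusted p of 0.509. These 2 genes are near copies, since 51.2% of the 50-base words of the annotated Ifit3 transcript also occur in Ifit3b, and the sources used here do not say how fragments were divided between them. Their separate values are therefore uncertain. Summed, they stood at 9.67 and 29.46 FPKM in KO 1 and KO 2 and at 8.75 and 6.51 FPKM in WT 1 and WT 2, or 1.27-fold and 3.86-fold above the WT mean in KO 1 and KO 2.

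Ifit2, whose product forms complexes with other IFIT proteins, stood at 8.47 and 11.55 FPKM in KO 1 and KO 2 and at 8.11 and 9.03 FPKM in WT 1 and WT 2. KO 1 lay within the WT range, and KO 2 was 1.35-fold above the WT mean. With a log2 change of 0.19 ± 0.19 (95% interval -0.29 to 0.67) it was among the smallest differences of the 10, and its sign turned without KO 2 (-0.01). In WT it was the second most abundant of the 10 genes, at a mean of 8.57 FPKM, while Ifit3b was the least abundant at 1.39 FPKM. The ratio of the KO mean to the WT mean was 1.17 for Ifit2, 2.22 for Ifit3, 3.29 for Ifit1 and 4.1 for Ifit3b, with the KO libraries of the last 3 genes far apart.

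Of 4 relatives and neighbours of these genes, 3 were tested, with a median log2 change of 0.51, and 0 passed, while 1 had an unadjusted p under 0.05. That gene was Ifit1bl2, which lies on the other strand between Ifit3b and Ifit1 and begins at 34640743, inside the Ifit1 stretch printed above. It stood at 2.94 and 5.73 FPKM in KO 1 and KO 2 and at 1.52 and 1.23 FPKM in WT 1 and WT 2 (log2 change 1.12 ± 0.30, adjusted p = 0.345). Of the 50-base words of Ifit1, 7.06% occur in Ifit1bl2, so a small part of either value could belong to the other. Ifit1bl1 stood at 2.99 and 3.25 FPKM in KO 1 and KO 2 and at 1.85 and 2.51 FPKM in WT 1 and WT 2. Ifi44l was listed at 0 in every library. The KO libraries lay above both WT libraries in both IFIT-like genes, where 19.7% of all genes tested did so. KO 2 stood clearly above KO 1 only in Ifit1bl2. For Ifit1bl1 the KO libraries were nearly equal, and KO 1 rested on 107 fragments against 93 in WT 2.

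ISG15 is attached to other proteins in the manner of ubiquitin and is also secreted. Isg15 (chromosome 4, 156199424 to 156200818) was the most abundant of the 10 transcripts in both groups, at 23.62 and 37.53 FPKM in KO 1 and KO 2 and at 15.93 and 13.08 FPKM in WT 1 and WT 2. KO 1 was 1.63-fold and KO 2 2.59-fold above the WT mean, and the groups did not overlap. The log2 change was 1.00 ± 0.25 (95% interval 0.35 to 1.65, adjusted p = 0.343), which gave the smallest unadjusted p of the 10 genes.

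Usp18 encodes the protease that removes ISG15 from proteins and also damps signalling at the receptor chain IFNAR2. Usp18 (chromosome 6, 121245906 to 121270917) stood at 6.56 and 11.14 FPKM in KO 1 and KO 2 and at 5.53 and 4.5 FPKM in WT 1 and WT 2, a log2 change of 0.68 ± 0.26 (adjusted p = 0.401). KO 1 was 1.31-fold and KO 2 2.22-fold above the WT mean, without overlap. Of its exons, 124 bases overlap those of Gm44148, a lincRNA gene on the opposite strand that stood at 1.2 and 0.63 FPKM in KO 1 and KO 2 and at 0.4 and 0.96 FPKM in WT 1 and WT 2. The sources used here do not say whether counting used strand, so reads of the overlap cannot be assigned to either gene.

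The enzymes that attach ISG15 had smaller log2 changes than Isg15 and Usp18. Uba7, the activating enzyme, stood at 16.13 and 19.98 FPKM in KO 1 and KO 2 and at 14.87 and 15.29 FPKM in WT 1 and WT 2. Herc6, the main ISG15 ligase of the mouse, stood at 4.16 and 4.01 FPKM in KO 1 and KO 2 and at 3.6 and 3.26 FPKM in WT 1 and WT 2. Trim25, a ubiquitin ligase that also acts on ISG15, stood at 34.13 and 33.1 FPKM in KO 1 and KO 2 and at 32.5 and 32.65 FPKM in WT 1 and WT 2. For these 3 the KO libraries lay above both WT libraries, with log2 changes of 0.24, 0.20 and 0.04. Ube2l6, the conjugating enzyme, overlapped between groups, at 21 and 33.99 FPKM in KO 1 and KO 2 and 31.86 and 23.25 FPKM in WT 1 and WT 2. Its log2 change was -0.02 ± 0.28, and it turned positive under quantile normalization and median centring. None of these 4 enzyme genes passed the test, and their median log2 change was 0.12.

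Rsad2 encodes viperin, a radical SAM enzyme that makes a chain-terminating nucleotide. Rsad2 (chromosome 12, 26442746 to 26456452) stood at 6.61 and 14.7 FPKM in KO 1 and KO 2 and at 5.52 and 4.47 FPKM in WT 1 and WT 2, resting on 454 and 964 fragments in KO 1 and KO 2 and on 377 and 318 fragments in WT 1 and WT 2. KO 1 was 1.32-fold and KO 2 2.94-fold above the WT mean, without overlap, and the log2 change was 0.87 ± 0.36 (adjusted p = 0.423). Its neighbour Cmpk2, a nucleotide kinase gene, stood at 14.45 and 23.89 FPKM in KO 1 and KO 2 and at 13.8 and 11.75 FPKM in WT 1 and WT 2, with the libraries in the same order as for Rsad2 and a log2 change of 0.51 ± 0.26 (adjusted p = 0.461).

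Mx proteins are dynamin-like GTPases that block viruses. C57BL/6 mice carry defective Mx1 and Mx2 genes, and RefSeq lists both as transcribed pseudogenes, so the values below are of transcripts that do not stand for working proteins. Mx1 (chromosome 16, 97447035 to 97462907) stood at 4.4 and 6.97 FPKM in KO 1 and KO 2 and at 3.96 and 3.81 FPKM in WT 1 and WT 2. KO 1 was 1.13-fold and KO 2 1.79-fold above the WT mean, with a log2 change of 0.43 ± 0.23 (adjusted p = 0.473). Mx2 (chromosome 16, 97535308 to 97560900) stood at 2.46 and 2.16 FPKM in KO 1 and KO 2 and at 1.98 and 1.92 FPKM in WT 1 and WT 2. Mx2 had the smallest log2 change of the 10, 0.16 ± 0.17 (95% interval -0.28 to 0.61, adjusted p = 0.653), and it was the only one of them with KO 1 above KO 2. Its 95% counting intervals were 2.07 to 2.91 FPKM in KO 1 and 1.79 to 2.59 FPKM in KO 2, against 1.64 to 2.39 FPKM in WT 1, so its ranges in single libraries overlap within counting error. Mx1 and Mx2 share 3.86% of the 50-base words of Mx1.

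Ifi44 encodes an interferon-induced cytoplasmic protein. Ifi44 (chromosome 3, 151730922 to 151749960) stood at 2.03 and 2.72 FPKM in KO 1 and KO 2 and at 1.67 and 1.45 FPKM in WT 1 and WT 2, a log2 change of 0.39 ± 0.20 (adjusted p = 0.461). KO 1 was 1.3-fold and KO 2 1.74-fold above the WT mean, without overlap. All 10 genes had a mean above 1 FPKM in WT as well as in KO, so none entered the test through the KO libraries alone.

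By level, Isg15 stood apart from the other 9 genes in both groups, at a mean of 30.58 ± 9.84 FPKM in KO and 14.5 ± 2.02 FPKM in WT (SD, n = 2 each). In KO the next 7 genes, Ifit3, Rsad2, Ifit2, Usp18, Ifit1, Mx1 and Ifit3b, formed a run in which the ranges of each neighbouring pair overlapped, and Ifi44 and Mx2 lay below them and overlapped each other. In WT the order was Ifit2, Ifit3, Usp18, Rsad2, Mx1, Ifit1, Mx2, Ifi44 and Ifit3b, in which the neighbours Ifit3 and Usp18, Usp18 and Rsad2, and Ifi44 and Ifit3b overlapped.

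The size of the difference depended on which KO library was read. KO 2 was above both WT libraries for 10 of the 10 genes (29.4% of all genes were), and KO 1 for 8 of them (37.5% of all genes were). KO 2 was above KO 1 for 9 of the 10, against 36.4% of all genes. The median log2 difference from the WT mean was 0.29 in KO 1 and 1.17 in KO 2, and over all genes it was -0.01 in KO 1 and -0.17 in KO 2. In the fit without KO 1 the median log2 change of the 10 was 1.17. In the fit without KO 2 it was 0.29, while 8 of them still lay above both WT libraries. Each of these fits compares 1 KO library with 2 WT libraries and assumes that the lone library varies like the WT pair.

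**Figure D3:**
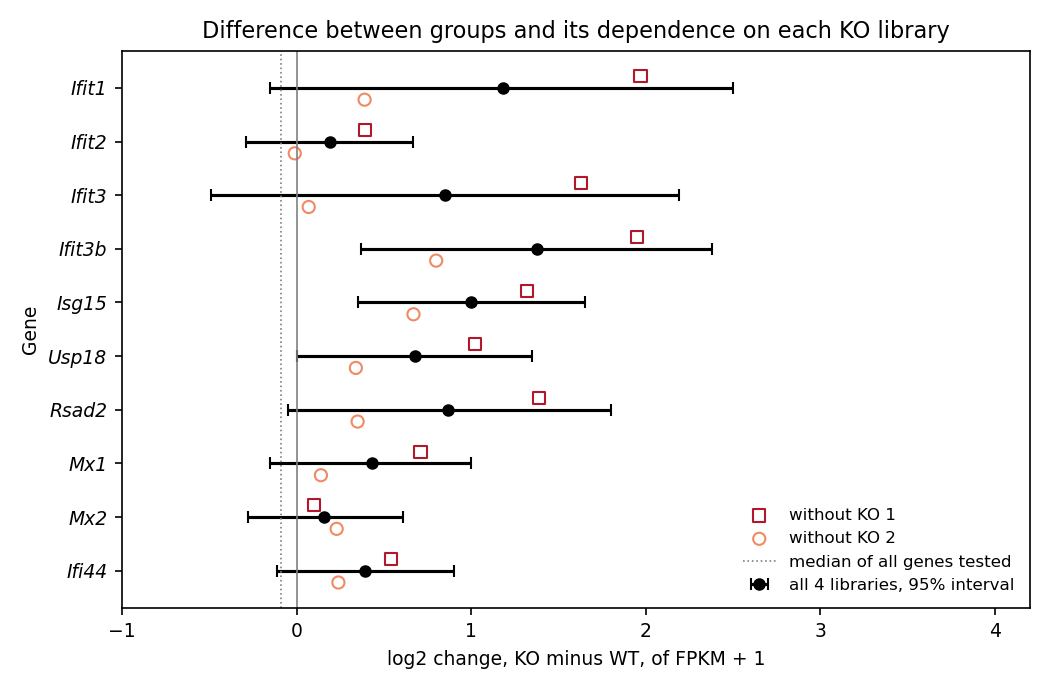
Log2 change (KO minus WT, on FPKM + 1) of the 10 genes with all 4 libraries (black, with its 95% interval), without KO 1 (open squares) and without KO 2 (open circles), with the median of all genes tested as a dotted line at -0.09. Without KO 1 the change of Ifit1 is 1.97 and without KO 2 it is 0.39, and the 2 settings are nearest to each other for Mx2.

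Markers of other cells varied across the same libraries, and their part in these differences was not tested. The 10 neutrophil markers summed to 35650 and 72660 FPKM in KO 1 and KO 2 and to 27293 and 25489 FPKM in WT 1 and WT 2, which is 1.35-fold and 2.75-fold above the WT mean in KO 1 and KO 2, and none of them was at 0. Against these ratios, 3 of the 10 effector genes had a larger ratio in KO 1 (Ifit1, Ifit3b and Isg15). In KO 2, 4 had a larger one (Ifit1, Ifit3, Ifit3b and Rsad2). The separate values of Ifit3 and Ifit3b are uncertain. Summed, these 2 stood at 1.27-fold in KO 1, below the neutrophil ratio, and at 3.86-fold in KO 2. The share of all genes with larger ratios was not counted. The 7 monocyte markers summed to 166.6 and 401.4 FPKM in KO 1 and KO 2 and to 160.2 and 131.8 FPKM in WT 1 and WT 2. Most of this sum was Ly6c2, at 104.16 and 228.06 FPKM in KO 1 and KO 2 and 84.05 and 71.63 FPKM in WT 1 and WT 2. KO 2 lay above both WT libraries for 7 of the 7 (29.4% of all genes did) and KO 1 for 3 (37.5% did). Csf1r in KO 1 lay below both, at 12.98 FPKM against 23.54 and 17.04 FPKM in WT 1 and WT 2. The 7 plasmacytoid dendritic cell markers, which include the interferon-induced Bst2, summed to 251.6 and 270.7 FPKM in KO 1 and KO 2 and to 194.7 and 160.7 FPKM in WT 1 and WT 2. The 11 B-lineage markers summed to 1337 and 718.4 FPKM in KO 1 and KO 2 and to 1568 and 1617 FPKM in WT 1 and WT 2.

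The 6 NK and T cell markers summed to 46.36 and 102.8 FPKM in KO 1 and KO 2 and to 45.99 and 38.7 FPKM in WT 1 and WT 2. Most of this sum was Nkg7, a cytotoxic granule protein gene, without which the other 5 summed to 18.59 and 23.65 FPKM in KO 1 and KO 2 and to 19.47 and 16.24 FPKM in WT 1 and WT 2. The 6 macrophage markers summed to 115 and 183.5 FPKM in KO 1 and KO 2 and to 252 and 139.1 FPKM in WT 1 and WT 2. The 6 erythroid markers summed to 282.3 and 545 FPKM in KO 1 and KO 2 and to 1122 and 652.5 FPKM in WT 1 and WT 2, and the 5 plasma cell markers to 57.6 and 60.44 FPKM in KO 1 and KO 2 and 165.5 and 146.3 FPKM in WT 1 and WT 2. Without Jchain, the immunoglobulin joining chain gene, the other 4 plasma cell markers summed to 57.35 and 59.99 FPKM in KO 1 and KO 2 and to 59.67 and 54.81 FPKM in WT 1 and WT 2. Both of these genes were left out after the values were seen.

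When the libraries were scaled to the B-lineage markers, 2 of the 10 effector genes passed, Ifit1 (adjusted p = 0.0186) and Ifit3b (0.00397), where 1.23% of all genes passed as higher. It also lifted the median of all genes by 0.55, and the median log2 change of the 10 was then 1.35.

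**Figure D4:**
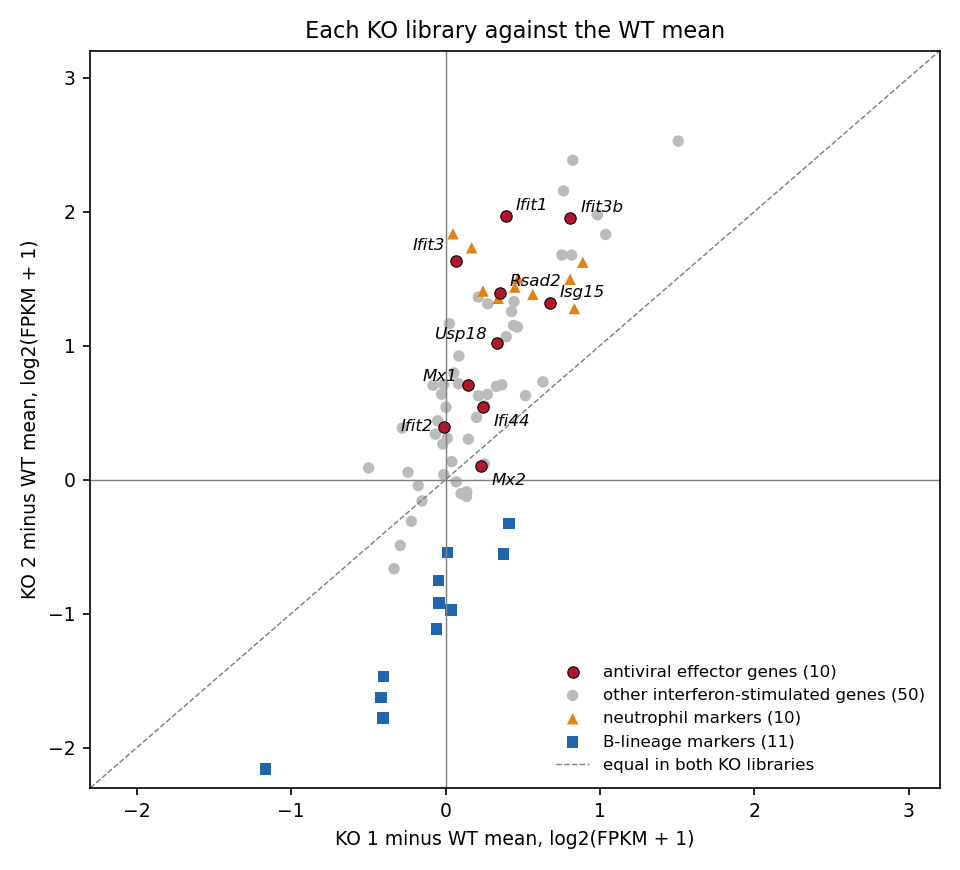
Difference from the WT mean on log2(FPKM + 1) in KO 1 (x axis) and KO 2 (y axis) for the 10 effector genes (red), 50 other interferon-stimulated genes (grey), 10 neutrophil markers (orange) and 11 B-lineage markers (blue), with a dashed line where both KO libraries are equal. The effector genes lie above the line except Mx2, with Ifit3, Rsad2 and Isg15 close to the neutrophil markers, whose medians are 0.46 in KO 1 and 1.47 in KO 2, while the B-lineage medians are -0.04 in KO 1 and -0.97 in KO 2.

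The 8 genes of the signalling chain had a median log2 change of 0.23, all positive, against 0.76 for the effectors, and 0 passed the test and 1 had an unadjusted p under 0.05. It was Irf7, the interferon regulatory factor that amplifies interferon production, at 19.01 and 33.48 FPKM in KO 1 and KO 2 and 15.49 and 12.05 FPKM in WT 1 and WT 2 (log2 change 0.84 ± 0.30, adjusted p = 0.381). Of the subunits of ISGF3, Stat2 stood at 13.68 and 17.92 FPKM in KO 1 and KO 2 and at 13.72 and 12.9 FPKM in WT 1 and WT 2, and Irf9 at 16.21 and 18.29 FPKM in KO 1 and KO 2 and 16.38 and 14.56 FPKM in WT 1 and WT 2. For both of these genes KO 1 lay within the WT range. The log2 changes were 0.09 for Ifnar1 and 0.28 for Ifnar2, which encode the receptor chains, and 0.10 for Jak1 and 0.24 for Tyk2.

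Transcripts of the interferons themselves were at or near the limit of detection. Of 21 genes of type I, type II and type III interferons 0 reached 1 FPKM, and 17 were listed at 0 in every library, where the limit that a count of 0 allows, 3 fragments, corresponds to between 0.173 and 0.354 FPKM by gene length. Ifnb1, the interferon beta gene, was listed at 0 in KO 1, KO 2 and WT 1 and at 0.08 FPKM in WT 2. Ifnk stood at 0.08 FPKM in KO 1 and 0.15 FPKM in WT 2, and Ifnz at 0.04 FPKM in KO 1, and both were listed at 0 elsewhere. Ifng, the type II interferon gene, stood at 0.83 and 0.77 FPKM in KO 1 and KO 2 and at 0.54 and 0.71 FPKM in WT 1 and WT 2, below the filter. It rested on 17 and 15 fragments in KO 1 and KO 2 and on 11 and 15 in WT 1 and WT 2. No order of the libraries is read from so few fragments.

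A list of 52 other interferon-stimulated genes gives the setting for the 10. Of the 50 tested, 42 were positive and 27 lay above both WT libraries in both KO libraries (19.7% of all genes did), while 4 lay below both (31.7% of all genes did). In limma 0 passed the test in either direction. At an unadjusted p under 0.05, 17 were higher (6.45% of all genes were) and 2 were lower (6.02% of all genes were). Voom called 0 genes of the whole table as higher. Their median log2 change was 0.37, with 0.14 in KO 1 and 0.63 in KO 2. The 6 with the smallest p were Ifitm1, Oas3, Oas2, Gbp7, Slfn1 and Ifitm3. Ifitm1, which encodes a membrane protein that blocks virus entry, stood at 38.72 and 79.54 FPKM in KO 1 and KO 2 and at 10.82 and 15.53 FPKM in WT 1 and WT 2, a log2 change of 2.02 ± 0.38 (adjusted p = 0.262). With B-lineage scaling it passed (adjusted p = 9.53e-05) as 1 of 7 of the 50 genes, with Oas2 and Oas3. In that setting 1.23% of all genes passed as higher. The log2 change of Ifitm1 was 2.53 without KO 1 and 1.51 without KO 2. Oas3 and Oas2, sensors of double-stranded RNA, had log2 changes of 1.43 and 1.48, Ifitm3 had 1.21, Slfn1, a Schlafen gene, had 1.25, and Gbp7, a guanylate-binding protein gene, had 0.57. Gbp7 was nearly equal in both KO libraries, at 10.49 and 11.39 FPKM in KO 1 and KO 2 and 7.29 and 6.77 FPKM in WT 1 and WT 2.

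The genes whose profile over the 4 libraries lay nearest to the median profile of the 10 were not on the interferon lists. By Euclidean distance on log2(FPKM + 1) relative to the WT mean, among 10847 other protein-coding genes, they were Rab32 (a small GTPase of lysosome-related organelles, distance 0.0466), Aoah (an enzyme that inactivates bacterial lipopolysaccharide, 0.0512), Pafah2 (a phospholipase, 0.0561), Sept5 (a septin, 0.0627) and Hcst (a signalling adaptor of cytotoxic and myeloid cells, 0.0632). Rab32 stood at 16.22 and 30.59 FPKM in KO 1 and KO 2 and at 13.91 and 12.79 FPKM in WT 1 and WT 2. Aoah stood at 5 and 10.55 FPKM in KO 1 and KO 2 and at 4.21 and 3.78 FPKM in WT 1 and WT 2. Among the 10, Ifit1, Ifit3b, Isg15, Usp18, Rsad2, Mx1 and Ifi44 had the order KO 2, KO 1, WT 1, WT 2. The share of all genes with this order was not counted. The nearest genes have it too, which follows from how they were chosen. With 4 libraries such likeness is a description only.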

How the data were processed

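RNA sequencing libraries of sorted bone marrow B cells, 2 labelled ADAR1 KO and 2 wild type, were grouped by their titles. The authors deposited FPKM values rounded to 2 decimals, per the file headers. Per the submitters' processing notes the build is mm9, and the sources used here name no aligner, counting program or annotation. The reference tables gave symbols for 55394 of 55573 identifiers. GENCODE M21 gave exon lengths for 55480 identifiers, and GRCm38 coordinates, matched by gene identifier. The identifiers and these lengths match the deposited values although the notes name mm9, and this conflict was not resolved. Values multiplied by length fell on whole fragments, within 0.15, in 99.5% to 99.7% of the low values checked, which gave the estimated fragments. Values below 3 fragments cannot be told from 0, and intervals and limits cover counting error only.

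Limma 3.58.1 (R 4.3.3) was fitted to log2(FPKM + 1) with a trended variance and without covariates, over 13281 genes whose KO mean or WT mean reached 1 FPKM, with Benjamini-Hochberg adjustment over all of them and a threshold of 0.05. The code was run on simulated data in which every library had the spread of the WT pair. That run does not show how the fit behaves when the KO libraries lie further apart. The pseudocount understates changes of low genes. An exact permutation test of 2 against 2 cannot give a p below 0.333 and was not used. Alternatives were another pseudocount, 2 other filters, 3 scalings, voom, blocks and leaving out each library. Named were the 10 genes, Adar, all genes of 4 short lists, 6 other interferon-stimulated genes by p, the first markers of cell type lists, and 5 genes by profile. Values of 2 genes under this rule are not reported here. The genes and lists were chosen with earlier results of these data known. Promoter sequences are from RefSeq (GRCm38.p6).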

Additional observations from a re-analysis of the deposited data

How the results depend on the processing

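The median log2 change of the 10 genes was 0.76 and stayed between 0.76 and 0.86 with a pseudocount of 0.1, no filter, a filter at 5 FPKM (which leaves 8 of the 10), quantile normalization, median centring and voom, with 0 of the 10 called in each. It was 1.35 with B-lineage scaling, where 2 were called. That scaling multiplies all values of a library by 1 factor, and the median over all genes moved with it from -0.09 to 0.46. Leaving out 1 library in turn gave medians of 0.29 to 1.17 and 0 to 4 genes called, lowest without KO 2 and highest without KO 1. Of 90 values for single genes of the 10 under the alternatives that can change a log2 change (not filters or blocks), 89 kept their sign, the exception being Ifit2 without KO 2 (range -0.01 to 0.39 when 1 library was left out). Ube2l6 turned from -0.02 to 0.05 with quantile normalization, 0.04 with median centring and 0.60 with B-lineage scaling, and ranged from -0.36 to 0.31 when 1 library was left out.

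Over all genes 27 were called. The count was 15 with a pseudocount of 0.1, 0 with no filter (26648 genes tested), 287 with B-lineage scaling, 9 with voom, and 0 to 948 when 1 library was left out, 0 without KO 2, 948 without KO 1 and 14 without WT 1. The labels do not say that the numbers in the titles pair the samples, and the deviations of KO 1 with WT 1 and KO 2 with WT 2 were weakly opposed (r = -0.149 across 13281 genes), so pairing was not assumed. With the replicate block 68 genes were called, 7 of them as higher. These included 0 of the 10 and 1 of the 50 other interferon-stimulated genes (Ifitm1, adjusted p = 0.0251), which was higher. With the crossed pairing, chosen after seeing the data, 213 genes were called, 46 of them as higher. They included 0 of the 10 and 3 of the 50, all 3 higher.

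Depth limits the genes below 3 FPKM, since Ifit3b rests on 46 and 43 fragments in WT 1 and WT 2.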

Other observations

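The 10 genes differed in how far KO 1 stood from the WT mean, which was not tested. Isg15 stood 1.63-fold above the WT mean in KO 1 and Ifit1 1.44-fold. Rsad2, Usp18, Ifi44, Mx2 and Mx1 stood between 1.13-fold and 1.32-fold above it, and Ifit2 was at 0.988-fold. The near copies Ifit3 and Ifit3b were at 1.27-fold when summed, and their separate values of 1.04-fold and 2.28-fold are uncertain. Ifit1bl2, the neighbour of Ifit1, stood 2.14-fold above the WT mean in KO 1 and 4.17-fold in KO 2. Oas3 and Oas2 stood 2.2-fold and 2.11-fold above the WT mean in KO 1, and Ifitm1 2.94-fold.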
